A study of Mus musculus with 8 samples.

Results

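The enzymes that add methyl or acetyl groups to histone lysines, and those that take them off, were followed in C2C12 mouse myoblasts after the long non-coding RNA Pvt1 had been silenced. Members were taken by gene symbol from the array annotation: the Kdm, Kmt, Mll, Setd, Suv, Hdac, Sirt and Kat families followed by their number, with Ehmt1, Ehmt2, Ep300 and Crebbp. The rule found 65 genes of 36693 named on the array, read by 179 of its 56605 probes. Of these, 63 genes and 134 probes had enough values to be tested. Hdac11, the class IV deacetylase, and Kdm4d, a demethylase of the Kdm4 family, had no such probe, and neither was well above background on any array. Here 3 members carry symbols that have since been replaced, Setd8 (now Kmt5a), Suv420h1 (now Kmt5b) and Suv420h2 (now Kmt5c), and the array's names are kept.

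C2C12 is an established line of mouse myoblasts that divides in rich medium and can be made to fuse into myotubes. All 8 cultures were proliferating, at passage 10, and all went through the same lipid transfection (Lipofectamine 2000) with LNA GapmeRs, which are short antisense oligonucleotides that direct RNase H to cut the RNA they pair with. The 4 control cultures (Mock) received negative control GapmeRs and the 4 Pvt1-silenced cultures received GapmeRs against Pvt1, and the labels call the 4 cultures of each group biological replicates. Total RNA of each culture was hybridized to its own one-colour Agilent array, and the study asked what loss of Pvt1 does to the cells' genes. As a model the design is limited to 1 cell line and 1 passage, and the labels do not say whether a silenced culture received one of the Pvt1 GapmeRs or both. Both are shown because they are what separated the groups, 5′ to 3′, with every base in lower case because no part is singled out.

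Pvt1_1: accgtagtagagttaa
Pvt1_3: agtcaacgcttcacat

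Histone tails carry methyl and acetyl groups on defined lysines, placed by writers and removed by erasers. Methylation of H3K4 marks active promoters, methylation of H3K27 and H3K9 marks repressed chromatin, and H3K36 methylation lies over transcribed gene bodies, whereas acetylation goes with open chromatin. In myoblasts the switch to differentiation is known to involve the removal of H3K27 methylation and the acetyltransferases CBP and p300 at muscle genes, with class I and class IIa deacetylases acting against them.

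Pvt1 itself, the check on the labels, read 9.65, 9.79, 10.31 and 9.70 on the control arrays and 7.09, 6.69, 7.85 and 6.39 on the silenced arrays (normalized log2 intensity of its brightest probe). The groups did not overlap, and the difference was -2.86 (SE 0.32, limma adjusted p = 0.000682), or 13.8% of the control level. With normexp background correction (offset 50) the difference was -2.19, and a dimmer Pvt1 probe, fitted without silenced replicate 4, where it had no value, was at -3.80 (adjusted p = 0.00013). Of the marker genes for the labelled cell type, 7 of 8 myoblast markers, Myod1, Des and Cdh15 among them, were well above background on all 8 arrays and Myf5 on none. The summed linear level of these 8 markers ran from 154000 to 177000 in controls and from 106000 to 136000 in silenced cultures, and that of 5 differentiated muscle markers from 2670 to 3390 and from 1000 to 1410. Mean log2 intensity of Acta1 was 11.25 in controls and 9.60 in silenced cultures and that of Myog 7.31 and 7.76, while Myh4 and Ckm were each well above background on 1 control array and no silenced array. Markers of other cells also moved with the groups. Of 12 liver genes, Alb, Mup1, Serpina1a, Fgb and Trf were well above background on all 4 silenced arrays and on no control array, Apoa1, Fga and Apoc3 were well above it on none, and the sum went from 1030 to 1900 in controls and from 5000 to 6280 in silenced cultures. The 5 leukocyte markers summed to between 5770 and 6530 in controls and between 6690 and 9540 in silenced cultures. Their probes went both ways, with means of 9.76 and 11.23 for Ptprc, 9.33 and 11.40 for Cd68, 12.09 and 11.19 for Itgam and 7.85 and 7.05 for Csf1r, and Adgre1 was well above background on no array. None of the 4 endothelial markers was well above background on any array. These lists moved with the same groups as every result here, and their part in the results was not tested. In these bulk RNA samples fewer cells of a type and less RNA per cell cannot be told apart.

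Several arrays stood apart. The silenced replicate 4 array had 51.6% of its spots positive and significant against 58.8% to 62.5% on the other arrays, and it gave the lowest value of its group for 59 of the 63 member genes. Control replicate 3 correlated less with its own group than the other control arrays did (mean r 0.964 against 0.981), and control replicate 1 was the lowest of its group for 44 member genes. All arrays lay on 1 slide, whose upper row held 3 controls and 1 silenced culture and whose lower row held 1 control and 3 silenced cultures. The scaling and the mask on dim spots also matter for direction: over all 28649 tested probes the median silenced minus control difference was -0.19 on the log2 scale after masking and quantile normalization and 0.02 after masking and cyclic loess, and 79.3% of all calls were falls under the first and 49.3% under the second. Without the mask, quantile normalization gave a median of 0.01 and 49.0% falls. The differences and calls below are after masking and quantile normalization and against 0, and a typical probe was at -0.19. Apart from the sums over markers, levels of different probes are not set against each other.

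With each gene read by its brightest tested probe, 10 of the 63 member genes fell in the silenced cultures and 4 rose, while 49 did not pass the test (limma, Benjamini-Hochberg adjusted p at 0.05 over all probes). The falls were Kdm6a, Kdm8, Crebbp, Kdm6b, Kmt2a, Kdm5d, Kmt2b, Kat6a, Sirt6 and Kdm2a, from -1.50 to -0.71, and the rises were Kdm5b, Sirt3, Suv420h2 and Hdac6, from 0.77 to 1.19. Among all 19284 genes read in the same way 14.0% fell and 6.02% rose, so the members' shares, 15.9% and 6.35%, lay near the background and are no result about the family as a whole. The median difference was -0.13 over the member genes and -0.09 over all genes. For 15 member genes the 4 control and 4 silenced values did not overlap, the called genes other than Sirt3 together with Kdm5c and Kat2a, and the same held for 23.2% of all genes. Without silenced replicate 4 there were 9 falls and 7 rises (Kdm5d lost, Hdac5, Kat2b and Sirt5 gained). Without control replicate 3 there were 12 and 5 (Kdm5d lost, Ep300, Hdac2, Kdm3b and Sirt5 gained). Of all probes 17.8% fell and 12% rose in the first and 19.9% and 5.88% in the second. With every array these shares were 18.4% and 4.79%.

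**Figure D1:**
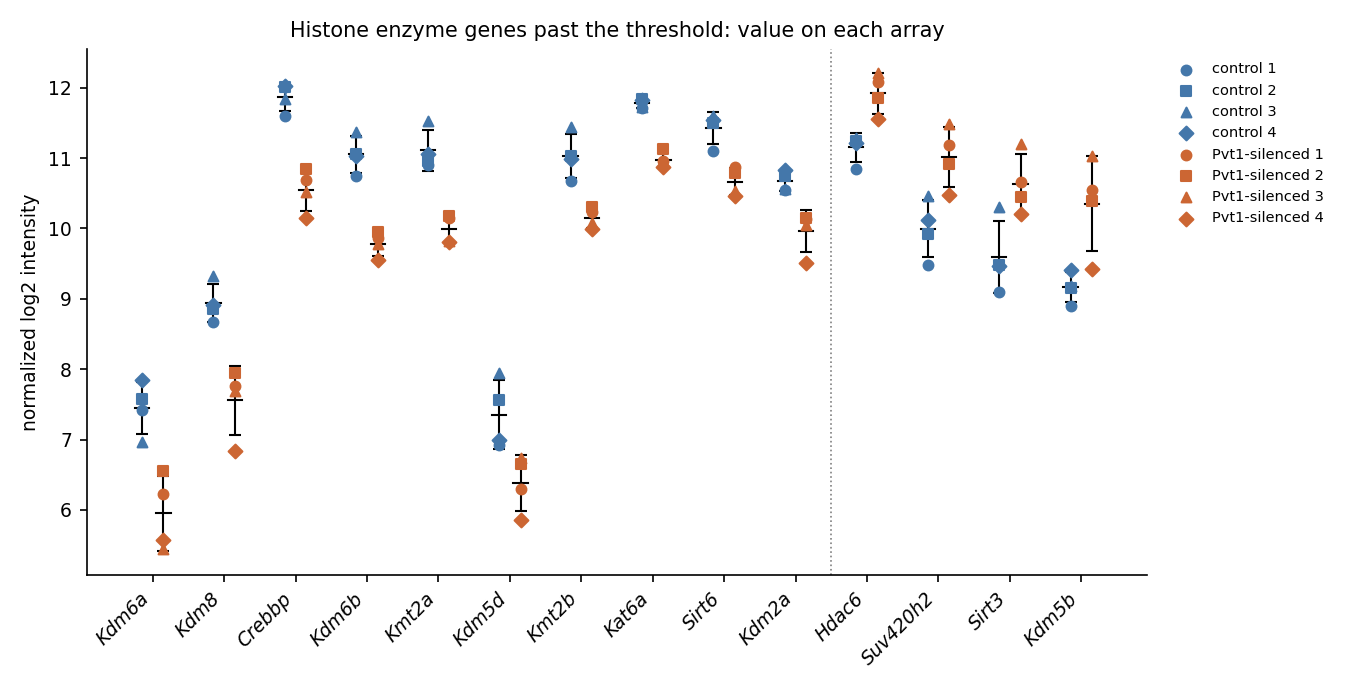
Normalized log2 intensity of the brightest probe of each of the 14 called genes on each of the 8 arrays (blue, control; orange, Pvt1-silenced; marker shape gives the replicate; bars, mean and SD of 4), with falls left of the dotted line and rises right of it. The groups separate for 13 of the genes, Sirt3 is the exception, and silenced replicate 4 lies at or near the bottom of the silenced values for most genes.

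By role, beside 14.0% of all genes lower and 6.02% higher, 5 of 17 methylation erasers fell and 1 rose (median difference -0.29, or -0.31 without Kdm7a, which no array read well above background), and 2 of 20 methylation writers fell and 1 rose (median 0.01). Of 9 acetylation writers 2 fell and none rose (median -0.44), while of 17 deacetylases and sirtuins 1 fell and 2 rose (median 0.18). The groups are small, and whether the roles differ from each other or from other genes was not tested. The rises by role also depended on the scaling and the mask: Kat2b, Kat8, Sirt5 and Sirt7 were called higher as well after a shift to the 75th percentile, with cyclic loess, with the authors' values and without the mask, where 24.7%, 18.9%, 9.86% and 8.82% of all probes rose, and the median of the methylation erasers was -0.02 with cyclic loess and 0.04 after the shift, while that of the acetylation writers was -0.14 and 0.02, that of the methylation writers 0.18 and 0.40, with 3 and 7 rises, and that of the deacetylases and sirtuins 0.49 under both, with 5 and 7 rises. These counts by role and scaling were chosen after seeing the data.

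Both genes filed here under H3K27 demethylation fell, beside 14.0% of all genes. Kdm6a, the X-linked enzyme also called UTX, read 7.43, 7.57, 6.96 and 7.85 on the control arrays and 6.23, 6.55, 5.44 and 5.58 on the silenced arrays (chrX:17841828-17846324, mm9, plus strand, a span longer than the 60-base probe). Every silenced value was below every control value, although the probe was well above background on all 4 control arrays and on only 1 silenced array. The difference was -1.50 (SE 0.30, adjusted p = 0.00756), and with normexp background correction (offset 50) it was -0.81 (adjusted p = 0.00616). A dimmer Kdm6a probe was at -0.89 and did not pass (adjusted p = 0.0853). Kdm6b, the inducible enzyme JMJD3, read 10.75, 11.06, 11.38 and 11.03 against 9.87, 9.95, 9.78 and 9.55 (chr11:69213554-69213698, minus strand). Its values were tight within each group and did not overlap, with a difference of -1.27 (SE 0.21, adjusted p = 0.00298), or 41.6% of the control level.

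Each gene was filed here under a single mark. Of the 3 erasers filed under H3K36 methylation, Kdm8 and Kdm2a fell, beside 14.0% of all genes. Kdm8, a Jumonji protein first described as an H3K36 demethylase, read 8.67, 8.86, 9.32 and 8.91 in controls and 7.76, 7.95, 7.69 and 6.84 in silenced cultures (chr7:132605280-132605339, plus strand). All silenced values lay below the controls, the lowest on silenced replicate 4, and the difference was -1.38 (SE 0.28, adjusted p = 0.00737), or 38.5% of the control level. Kdm2a, which binds unmethylated CpG islands, read 10.55, 10.74, 10.56 and 10.84 against 10.13, 10.14, 10.05 and 9.51 (chr19:4318137-4318196, minus strand). The groups were separate but close, with a difference of -0.71 (SE 0.21, adjusted p = 0.0362). A dimmer Kdm2a probe was well above background on all 4 control arrays and on no silenced array, so it was at least 1.62-fold higher in controls (adjusted p = 0.0179). The other 3 tested Kdm2a probes did not pass, at -0.34, -0.12 and -0.59 (adjusted p = 0.518, 0.857 and 0.22). Kdm2b, the paralog that recruits a Polycomb complex to CpG islands, was at 0.21 (adjusted p = 0.618). A dimmer Kdm2b probe fell (-1.78, adjusted p = 0.00101). Setd2, which places most trimethylation on H3K36, was at -0.25 (SE 0.37, adjusted p = 0.672). Its control values ran from 11.47 to 12.09 and its silenced values from 10.39 to 12.31, so the groups overlapped. A dimmer Setd2 probe fell (-1.62, adjusted p = 0.00229).

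Among the mixed-lineage leukemia writers of H3K4, Kmt2a and Kmt2b fell. Kmt2a, which keeps Hox and other developmental genes active, read 10.90, 10.95, 11.53 and 11.05 in controls and 10.15, 10.18, 9.82 and 9.81 in silenced cultures (chr9:44612810-44612869, minus strand). The silenced values all lay lower than the controls, and the difference was -1.12 (SE 0.22, adjusted p = 0.00631), or 46.1% of the control level. Kmt2b, its closest paralog, read 10.68, 11.03, 11.44 and 10.99 against 10.23, 10.31, 10.08 and 9.99 (chr7:31353906-31353965, minus strand). The groups were again separate, with a difference of -0.88 (SE 0.21, adjusted p = 0.0171). The other 6 H3K4 writers did not pass the test. The enhancer enzymes Kmt2c and Kmt2d were at -0.60 and 0.29, Kmt2e at -0.28 (with a dimmer probe that fell by 1.27, adjusted p = 0.00305), Setd1a at 0.09, the monomethyltransferase Setd7 at 0.26 and Setd1b at 1.07 (adjusted p from 0.141 to 0.79).

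Among the H3K4 erasers Kdm5b rose and Kdm5d fell. Kdm5b read 8.90, 9.16, 9.18 and 9.42 on the control arrays and 10.55, 10.40, 11.03 and 9.43 on the silenced arrays (chr1:136528046-136528105, plus strand). It had the largest rise among the members called, 1.19 (SE 0.32, adjusted p = 0.0263), or 228% of the control level, but silenced replicate 4 was only just above the highest control. A second Kdm5b probe rose too, by 1.44 (SE 0.34, adjusted p = 0.0153). Kdm5d, the Y-linked paralog, was dim and read 6.92, 7.56, 7.94 and 6.99 against 6.29, 6.65, 6.73 and 5.86 (chrY:282306-282365, plus strand). It fell by 0.97 (SE 0.30, adjusted p = 0.041), with no overlap, and was well above background on 4 control arrays and 3 silenced arrays. It was the only tested Kdm5d probe, and the other 5 on the array were not well above background anywhere. The X-linked Kdm5c was at -0.41, Kdm5a at -0.25, and the flavin-dependent Kdm1a (LSD1) and Kdm1b at 0.45 and 0.26 (adjusted p from 0.156 to 0.563). Without control replicate 3 Kdm1a was at -0.03.

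No writer or eraser of H3K9 methylation passed the test by its brightest probe, while 14.0% of all genes fell and 6.02% rose. Suv39h1, a trimethylating enzyme of heterochromatin, came nearest among the writers. Its controls read 13.09, 13.36, 13.65 and 13.36 and its silenced cultures 13.00, 13.20, 12.70 and 12.69, a difference of -0.47 (SE 0.21, adjusted p = 0.143). Silenced replicate 2 lay among the controls, so the groups overlapped. Its paralog Suv39h2 was at 0.15, or -0.31 without control replicate 3, and the euchromatic enzymes Ehmt1 and Ehmt2 (GLP and G9a) at -0.08 and 0.16. Kdm4a had the smallest adjusted p of the H3K9 erasers, 0.236, with controls at 12.01, 11.94, 12.53 and 12.12 and silenced cultures at 11.81, 11.88, 11.95 and 11.42 (difference -0.38, SE 0.22). Only silenced replicate 3 overlapped the controls, but the change was small, and by the mean of all its tested probes the gene was at 0.18, on the other side of 0. Kdm3a was at 0.38, Kdm3b at -1.11, Kdm4b at 0.29 and Kdm4c at -0.17. The tested probe of Kdm7a was not well above background on any array.

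For H4K20, Suv420h2, which makes the trimethyl mark in heterochromatin, rose by its brightest probe and fell by its other tested probe (-0.87, adjusted p = 0.0132), and the mean of its probes was at 0.08. The brightest probe read 9.49, 9.92, 10.46 and 10.12 in controls and 11.19, 10.91, 11.48 and 10.47 in silenced cultures. Silenced replicate 4 exceeded the highest control by a small margin only, and the difference was 1.02 (SE 0.28, adjusted p = 0.0295), or 202% of the control level for that probe. The monomethyltransferase Setd8 was at -0.07 and Suv420h1 at -0.23 by their brightest probes. Suv420h1 also had 3 dimmer probes that were well above background on all 4 control arrays and on no silenced array, which puts controls at least 1.12-fold, 1.18-fold and 1.77-fold higher (adjusted p = 0.146, 0.0579 and 0.00131). The first of these was fitted without silenced replicate 4, where it had no value. A pair of other Suv420h1 probes, well above background on all 8 arrays, were at 0.79 and 0.83 and did not pass (adjusted p = 0.109 and 0.114). Of the SET domain proteins not tied here to one histone mark, Setd3, which methylates actin, was at 0.32 (adjusted p = 0.295), with controls at 11.99, 12.21, 12.47 and 12.20 and silenced cultures at 12.59, 12.33, 12.84 and 12.38. Its groups overlapped. Setd4, Setd5 and Setd6 were at 0.10, 0.20 and -0.13.

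**Figure D2:**
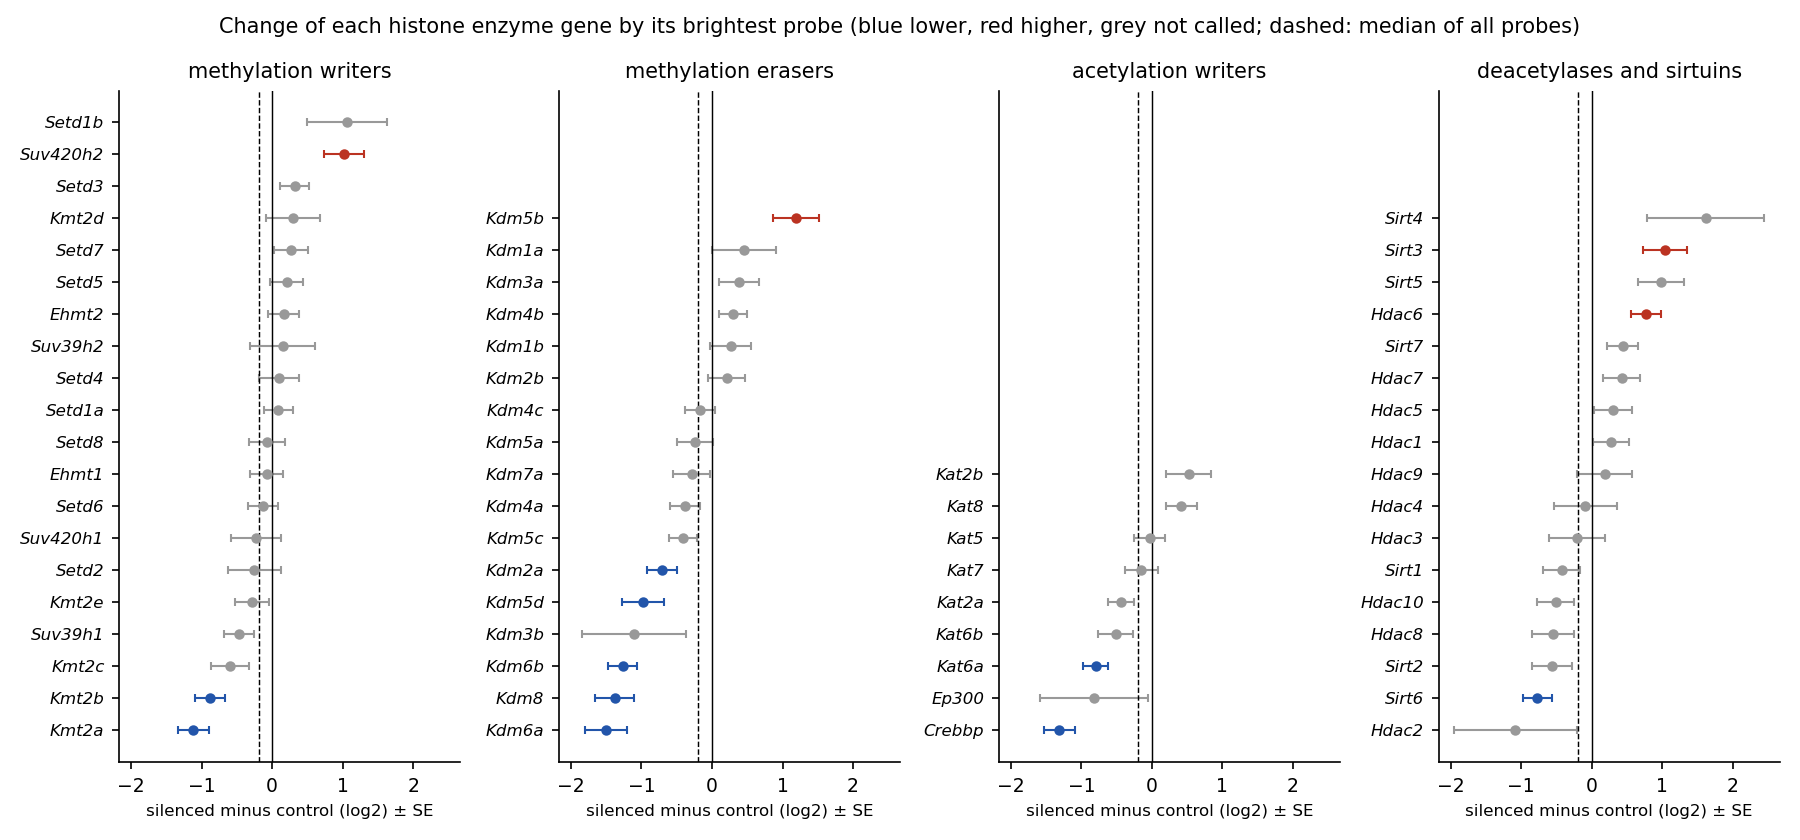
Silenced minus control difference (log2, points) with its standard error (bars) for the brightest probe of each of the 63 tested genes, in 4 panels by role (blue, called lower; red, called higher; grey, not called), with 0 as a solid line and the median of all probes, -0.19, as a dashed line. Falls lie in all 4 panels, 5 of the 10 among the methylation erasers, and the widest bars belong to genes with a low value on control replicate 3 such as Hdac2, Ep300, Kdm3b and Sirt4.

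The acetylation writers held, after Kdm6b, the smallest adjusted p by a brightest probe. Crebbp (CBP), a coactivator that acetylates H3K27 among other lysines, read 11.59, 12.005, 11.83 and 12.02 on the control arrays and 10.69, 10.84, 10.52 and 10.15 on the silenced arrays (chr16:4084710-4084769, minus strand). The gap between the groups was wider than the range of the controls, and the difference was -1.31 (SE 0.22, adjusted p = 0.00324), or 40.2% of the control level. All 3 tested Crebbp probes fell, from -2.13 to -1.31. Kat6a (MOZ), an H3 acetyltransferase, read 11.71, 11.84, 11.73 and 11.83 against 10.96, 11.13, 10.96 and 10.87 (chr8:24053632-24053691, plus strand). Its spread was small (SD 0.07 in controls and 0.11 in silenced cultures, n = 4 each), and it fell by 0.80 (SE 0.17, adjusted p = 0.0104). The other 7 acetylation writers did not pass. Ep300 (p300), the paralog of Crebbp, was at -0.82, Kat6b at -0.51, Kat2a (GCN5) at -0.44, Kat7 at -0.15, Kat5 (Tip60) at -0.03, Kat8 (MOF) at 0.42 and Kat2b (PCAF) at 0.52.

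None of the 4 class I and 4 class IIa deacetylases passed by its brightest probe, beside 14.0% of all genes lower and 6.02% higher. Hdac8 read 6.68, 7.35, 7.33 and 7.25 in controls and 6.71, 6.76, 7.10 and 5.82 in silenced cultures, with overlapping groups and a difference of -0.55 (SE 0.30, adjusted p = 0.212). Hdac1 was at 0.27, Hdac2 at -1.08 and Hdac3 at -0.21. Among the class IIa enzymes, which bind the muscle factor MEF2, Hdac7 read 11.45, 11.83, 12.22 and 11.80 against 12.27, 12.25, 12.75 and 11.72, a difference of 0.42 (SE 0.27, adjusted p = 0.282) with overlapping groups. Hdac4, Hdac5 and Hdac9 were at -0.09, 0.31 and 0.18. Hdac6, the class IIb enzyme that deacetylates tubulin in the cytoplasm, rose. It read 10.85, 11.25, 11.29 and 11.22 in controls and 12.08, 11.85, 12.20 and 11.55 in silenced cultures (chrX:7507249-7507308, minus strand), all above the controls, with a difference of 0.77 (SE 0.22, adjusted p = 0.03), or 170% of the control level. Hdac10, the other class IIb enzyme, was at -0.51 (adjusted p = 0.194).

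Of the 7 sirtuins, deacetylases that use NAD, Sirt6 fell, Sirt3 rose and 5 did not pass. Sirt6, a nuclear enzyme that acts on H3K9 acetylation, read 11.10, 11.50, 11.60 and 11.54 in controls and 10.87, 10.78, 10.53 and 10.47 in silenced cultures. No value overlapped, and it fell by 0.77 (SE 0.20, adjusted p = 0.0235), or to 58.6% of the control level. Sirt3, the main mitochondrial deacetylase, read 9.10, 9.49, 10.31 and 9.47 against 10.66, 10.45, 11.20 and 10.20. Silenced replicate 4 lay below control replicate 3, so the groups overlapped, and the difference was 1.04 (SE 0.31, adjusted p = 0.037). A dimmer Sirt3 probe was at 0.59 and did not pass (adjusted p = 0.263). The other mitochondrial sirtuins were at 0.98 for Sirt5 (adjusted p = 0.0535) and 1.62 for Sirt4 (adjusted p = 0.192), and Sirt1, Sirt2 and the nucleolar Sirt7 were at -0.42, -0.57 and 0.44.

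The calls differed in how far they rested on single arrays. When each array was left out in turn, 6 of the 10 falls, Crebbp, Kat6a, Kdm6a, Kdm6b, Kdm8 and Kmt2a, passed in every case. Kmt2b was lost without control replicate 2 or 4 (adjusted p = 0.0554 and 0.0538) and Sirt6 without control replicate 2 or 4 or silenced replicate 3 (adjusted p = 0.0783, 0.0836 and 0.0579). Kdm2a passed only without control replicate 3 or silenced replicate 4 and Kdm5d only without control replicate 1 or silenced replicate 3. All 4 rises were lost without any one of control replicates 1, 2 and 4 and silenced replicates 1, 2 and 3, with adjusted p up to 0.0698 for Kdm5b, 0.0914 for Hdac6, 0.0821 for Suv420h2 and 0.0987 for Sirt3. Within the upper row of the slide the 10 falls ran from -1.19 to -0.49 and within the lower row from -1.99 to -0.58, and the 4 rises were above 0 in both. With the slide row as a block, Crebbp, Kdm6a, Kdm6b, Kdm8 and Kmt2a passed (adjusted p from 0.0225 to 0.0441) and none of the rises did (adjusted p from 0.0944 to 0.103).

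Control replicate 3 decided the value of several genes. Ep300 read 10.20, 10.20, 6.56 and 10.47 in controls and 8.82, 8.96, 8.36 and 8.01 in silenced cultures, so only the third control lay below the silenced group. Without that array its difference went from -0.82 to -1.73 (adjusted p = 0.00277), but a dimmer probe of Ep300, well above background on all 8 arrays, was at 0.06 over all of them (adjusted p = 0.911). Hdac2 read 9.32, 9.32, 5.14 and 9.39 against 7.15, 7.98, 7.07 and 6.64, and went from -1.08 to -2.11 (adjusted p = 0.00218). Kdm3b showed the same layout and went from -1.11 to -1.97 (adjusted p = 0.00213). A dimmer Kdm3b probe, also low on control replicate 3 (4.81 against 7.34 to 8.04), was at 0.93 over all arrays (adjusted p = 0.332). Hdac4 went from -0.09 to -0.60 (adjusted p = 0.0793) and Hdac3 from -0.21 to -0.63 (adjusted p = 0.0934). Some positive differences shrank or turned: Sirt4 read 7.63, 8.17, 3.92 and 8.08 in controls, and without that array its difference went from 1.62 to 0.60, that of Setd1b went from 1.07 to 0.39, and Kdm1a and Suv39h2 were the 2 of 63 member genes that changed sign.

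The second probes of the same genes gave another picture. Over all 134 tested member probes 35 fell and 6 rose, 26.1% and 4.48%, where 18.4% and 4.79% of all probes did, and the median difference was -0.42. For 13 of the 63 genes the brightest probe was called with no probe against it, for 30 no probe was called, and for 18 only a dimmer probe fell: Hdac1, Hdac3, Hdac4, Hdac10, Kat2a, Kat6b, Kat7, Kdm2b, Kdm4c, Kdm5c, Kmt2e, Setd2, Setd4, Setd8, Sirt1, Sirt2, Sirt7 and Suv420h1. Setd1b was the only gene in which a dimmer probe alone rose (1.28, adjusted p = 0.01). Suv420h2 was the only gene whose probes were called in opposite directions. These patterns were counted for the member genes only, so whether they are particular to these enzymes was not tested.

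The position of a probe in its transcript went with these differences. For 30 member genes at least 2 tested probes were annotated to the same transcript, between 136 and 3540 bases apart. In 27 of them (90.0%) the probe nearer the 5′ end had the lower difference. Over the 30 genes the median of the 5′ minus the 3′ difference was -0.92 on the log2 scale, and the 5′ probe was called lower in 17 genes (56.7%) and the 3′ probe in 3 (10%), where 36.8% of 5′ and 13.1% of 3′ probes were over all genes with such pairs. The exceptions were Kat6b, Kmt2e and Setd1b. Across all 4028 genes with such pairs it was 80.2%, with a median of -0.60, so the order was not particular to these enzymes, and whether the members exceed other genes was not tested. The 5′ minus 3′ log2 difference of each pair was also set, on each array, against its own mean over the controls. The median over the 26 member pairs with values on all arrays was 0.01, 0.23, -0.34 and 0.10 in controls and -0.86, -0.78, -1.13 and -1.03 in silenced cultures. Every silenced array was below every control array in this quantity, and the same order held over 3456 genes, from -0.23 to 0.13 in controls and from -0.77 to -0.43 in silenced cultures.

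**Figure D3:**
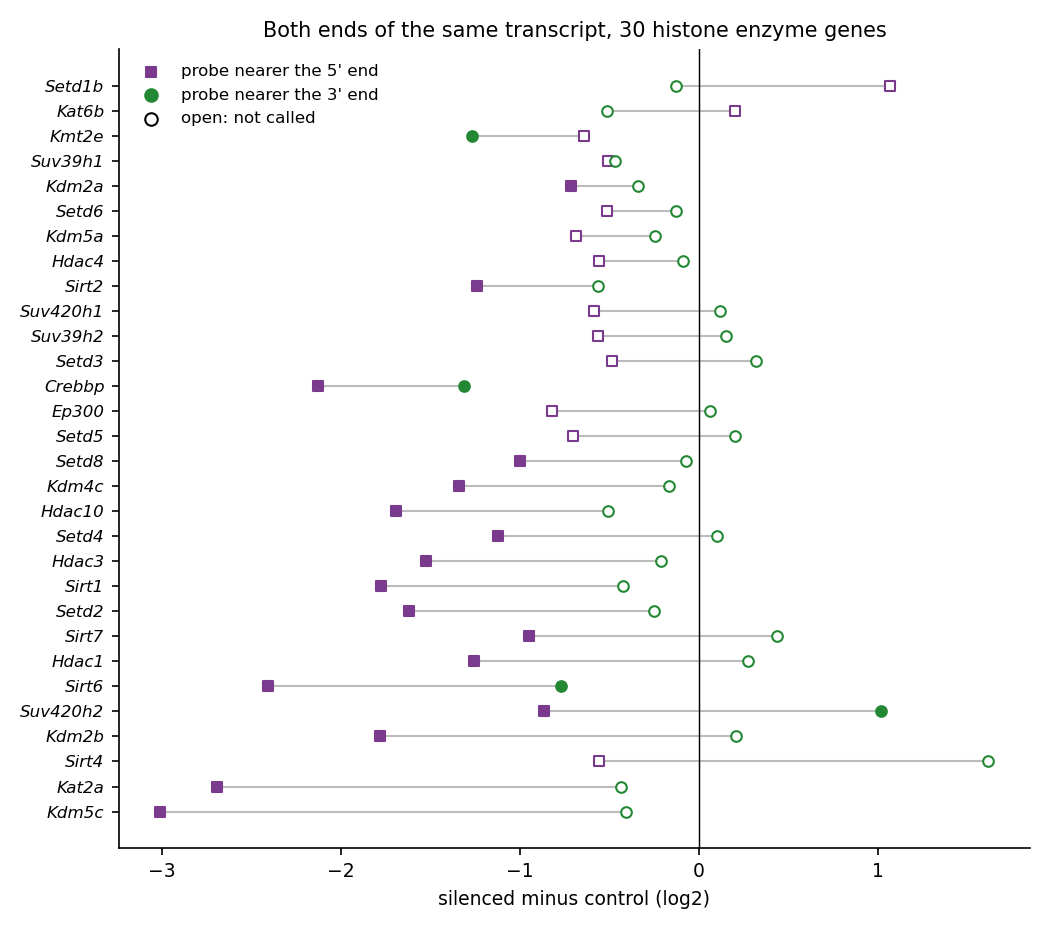
Silenced minus control difference (log2) of the probe nearest the 5′ end (square) and the probe nearest the 3′ end (circle) of the same annotated transcript in 30 member genes, filled where called and open where not, with a line joining the probes of a gene. The square lies left of the circle in 27 genes, and Kdm5c and Kat2a have the widest gaps.

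For 4 genes, chosen after their values had been seen, stretches of 30 bases of both probes are shown because the probes of one transcript gave different answers, 5′ to 3′ as printed on the array, with a polyadenylation signal (AATAAA) in capitals where the probe holds it. They were taken from the array files, where Kdm5c lies on chrX, Kat2a on chr11, Hdac1 on chr4 and Suv420h2 on chr7.

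Kdm5c, 5′ probe: agacaaatccagggcacatgcaaactgggg
Kdm5c, 3′ probe: ggttcatgctgtAATAAAgaagattgttgg
Kat2a, 5′ probe: tcttctacttcaagctcaaagagggagggc
Kat2a, 3′ probe: atccctcggagggaacAATAAAgctttttt
Hdac1, 5′ probe: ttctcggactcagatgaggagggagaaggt
Hdac1, 3′ probe: gtggaggttgatagcctagcttcctttttg
Suv420h2, 5′ probe: tccgcgccttcctgcctgagagtggcttca
Suv420h2, 3′ probe: aggcttcctctccttcccacatcggaatgg

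The Kdm5c probe at chrX:148707919-148707978 (mm9, plus strand) read 10.12, 10.65, 9.82 and 10.58 in controls and 7.38, 7.42, 7.17 and 7.17 in silenced cultures. This was the largest fall of any tested member probe, -3.01 (SE 0.23, adjusted p = 0.000185). Only 326 bases downstream, at chrX:148708245-148708304, the probe with the polyadenylation signal read 12.25, 12.35, 12.39 and 12.55 against 12.13, 12.16, 11.91 and 11.70, a difference of -0.41 that did not pass (adjusted p = 0.156) although the groups did not overlap.

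Kat2a, the catalytic subunit of the SAGA acetyltransferase complex, showed the same arrangement. Its 5′ probe at chr11:100566536-100566595 (minus strand) read 10.27, 10.36, 10.28 and 10.63 against 7.85, 8.36, 7.23 and 7.31, and fell by 2.70 (SE 0.27, adjusted p = 0.000527). Its 3′ probe, 467 bases on at chr11:100566069-100566128, was at -0.44 (adjusted p = 0.13). For Hdac1, the deacetylase of the Sin3 and NuRD complexes, the 5′ probe at chr4:129194655-129194714 (minus strand) read 11.61, 11.93, 11.80 and 11.89 against 10.69, 10.67, 10.76 and 10.06 and fell by 1.26 (SE 0.22, adjusted p = 0.00387). The 3′ probe at chr4:129193374-129193433 lay at 0.27 (adjusted p = 0.476), with overlapping groups. Suv420h2 had its rise in the 3′ probe at chr7:4699030-4699089 (plus strand), while the 5′ probe at chr7:4694234-4694293 read 7.76, 8.26, 8.17 and 7.97 against 7.31, 7.26, 7.20 and 6.92 and fell by 0.87 (SE 0.20, adjusted p = 0.0132).

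**Figure D4:**
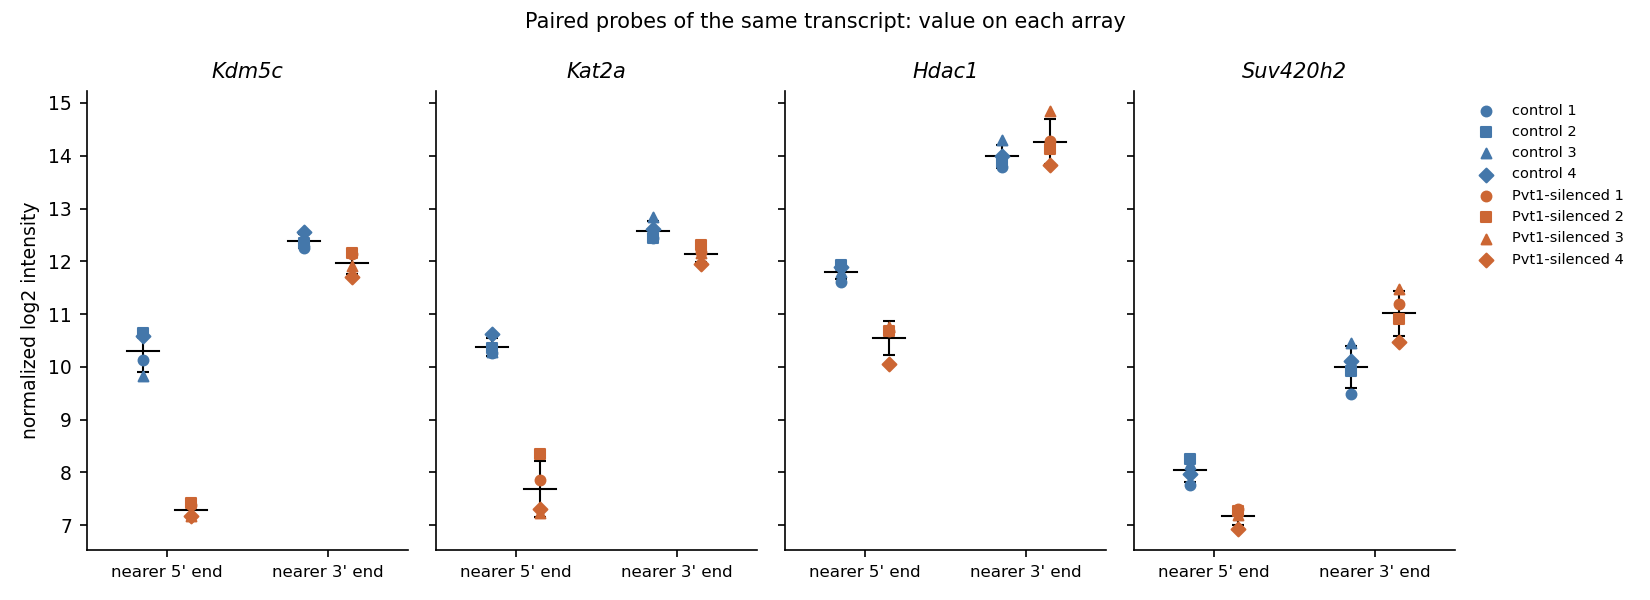
Normalized log2 intensity on each of the 8 arrays for the 5′ and the 3′ probe of Kdm5c, Kat2a, Hdac1 and Suv420h2 (blue, control; orange, Pvt1-silenced; marker shape gives the replicate; bars, mean and SD of 4). At the 5′ probe the silenced values lie below all controls in each gene, by -3.01, -2.70, -1.26 and -0.87 on average, and at the 3′ probe the differences are -0.41, -0.44, 0.27 and 1.02.

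A polyadenylation signal within the 60 bases of a probe (AATAAA or ATTAAA, on the strand printed on the array) went with the same contrast. Of 20 member probes that hold one, 3 rose and 2 fell, with a median difference of 0.18, where 10.2% rose and 6.64% fell of all probes with the letters. Hdac6 and Sirt3 were read by such probes, and so was Sirt6, which fell. Of the 114 member probes without one, 3 rose and 33 fell, with a median of -0.51, where 3.84% rose and 20.4% fell of all probes without them. Over the whole array the medians were 0.17 for 4265 probes with the letters and -0.26 for 24384 without, so this too held for all genes. A match to these letters is a description and not evidence of where a transcript ends.

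Of the genes that work with these enzymes, some fell and none rose after masking and quantile normalization. The lists were drawn up from known complexes with earlier results of these data known. Of 10 tested COMPASS subunits, which the Kmt2 and Setd1 writers need, 4 fell: Rbbp5 (-1.30, adjusted p = 0.00479), Wdr82 (-0.78), Ash2l (-0.66) and Men1 (-0.62), and Wdr5 was at -0.36 (adjusted p = 0.184). Of 21 subunits of deacetylase complexes, 5 fell, among them the NuRD subunits Mta1 (-2.43, adjusted p = 0.000693), Gatad2b (-1.96) and Mta2 (-0.95) with the corepressors Ncor1 (-1.35) and Sin3a (-0.65). Of 30 subunits of acetyltransferase complexes, 7 fell, from -3.02 for Vps72 (adjusted p = 0.000681) to -0.69 for Yeats4. Among 18 other histone lysine enzymes that the naming rule missed, 5 fell, Smyd5 (-2.17), Phf2 (-1.60), Prdm2 (-1.48), Ash1l (-0.91) and Elp3 (-0.80). Of 7 bromodomain readers of acetylated lysines Brd3 fell (-1.71, adjusted p = 0.00171), and Brd2 was at 0.08 (adjusted p = 0.917). The medians of the lists, in that order, were -0.47, -0.61, -0.20, -0.37 and 0.08, beside -0.09 over all genes. The shares that fell, in the same order, were 40%, 23.8%, 23.3%, 27.8% and 14.3%, where 14.0% of all genes fell. The lists are small, and whether they differ from other genes was not tested. The absence of rises depended on the scaling and the mask, as counts chosen after seeing the data show. In the same order, cyclic loess gave 3, 6, 7, 5 and 1 falls and 0, 3, 5, 2 and 1 rises, and a shift to the 75th percentile gave 1, 3, 5, 4 and 1 falls and 1, 4, 7, 2 and 1 rises. The list medians were -0.31, -0.35, -0.03, -0.20 and 0.29 with cyclic loess, beside 0.02 over all probes. After the shift they were -0.04, -0.07, 0.18, 0.01 and 0.45, beside 0.16. Without the mask there were 0, 2, 4, 2 and 1 rises and with the authors' values 0, 3, 4, 2 and 1, while normexp background correction gave 2, Tada2b and Smyd1. Of all probes 18.4% fell and 18.9% rose with cyclic loess, 15.2% and 24.7% after the shift, 8.46% and 8.82% without the mask, 9.75% and 9.86% with the authors' values and 19% and 5.5% with normexp.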

How the data were processed

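RNA of 8 C2C12 cultures, 4 control and 4 Pvt1-silenced by the labels, was labelled with Cy3 using a kit that primes from the poly(A) tail and hybridized to one-colour Agilent arrays. The deposited scanner files hold each spot's processed signal, a linear intensity with background subtracted by Feature Extraction, version 12.0.0.7 per the file headers (10.7.3.1 in the submitters' processing notes). The authors' methods state that spots not positive and significant were set to missing and that arrays were quantile normalized. The deposited series table holds the authors' normalized intensity on a linear scale, uncentred, with a median of 52.9 on every array, and was used as an alternative after log2.

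Here, over the 59305 spots that are not controls, the study's mask was applied to log2 values, which were quantile normalized and averaged per probe; spots flagged as outliers were left out too, a step the methods do not state. Of 56605 probes, the 28649 that kept a value on 3 or more of 4 arrays per group were tested with limma 3.58.1 (lmFit and eBayes, R 4.3.3), without covariates, with Benjamini-Hochberg adjustment over all of them at 0.05. A gene was read by its brightest tested probe (highest mean over 8 arrays). The script was tested on simulated data. The number of arrays limits the precision. Fold bounds set the mean of the brighter group against, per array, the higher of the lowest signal well above background and the dim probe's own signal.

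Members and lists were chosen with earlier results of these data known. Every member was to be named. Values per array were to be given for called genes, for genes with probes called in opposite directions, for probes that only 1 group's arrays, and all of them, read well above background, and for the smallest adjusted p of each remaining mark and role. For the probes well above background in only 1 group, fold bounds are given instead. The 5′ probes of 4 genes, and the genes that control replicate 3 decided, were added after their values had been seen. Probe coordinates are mm9, from the array files. Current symbols came from RefSeq (GRCm38.p6), where 125 of 130 RefSeq accessions of member probes matched. Exon and UTR positions, and matches of a probe to other genes, were not analysed here. Alternatives changed the normalization, background correction, mask, filter, test, block, probe and arrays used.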

Additional observations from a re-analysis of the deposited data

Results flagged for a closer look

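Groups of 4 arrays were examined for the brightest probe of each member gene, the dimmer probes given by array or by a fold bound, and Pvt1. Of 143 such groups 18 held a value far from the other 3, where chance alone gives about 1 in 20. All 18 lay on 3 arrays, 9 on control replicate 3, 6 on silenced replicate 4 and 3 on control replicate 1, the arrays that stood apart over many member genes.

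On control replicate 3, Hdac2 read 5.14 where its other controls lay between 9.32 and 9.39, Ep300 read 6.56 against 10.20 to 10.47, Sirt4 read 3.92 against 7.63 to 8.17, and Kdm3b read 5.96 against 9.23 to 9.68. Setd1b read 7.41 there against 10.01 to 10.21, Hdac4 read 8.17 against 10.10 to 10.31, Kdm1a read 10.68 against 12.42 to 12.76, and Hdac3 read 10.03 against 11.58 to 11.89. Of these 9 only Setd2 was high on that array, at 12.09 against 11.47 to 11.57.

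On silenced replicate 4, Kdm2a read 9.51 against 10.05 to 10.14, Kat7 read 12.505 against 13.21 to 13.35, Ehmt2 read 14.00 against 14.41 to 14.44, and the 5′ probe of Hdac1 read 10.06 against 10.67 to 10.76. Setd1a read 10.90 there against 11.30 to 11.35 and Setd7 read 11.33 against 11.73 to 11.81. On control replicate 1, Hdac6 read 10.85 against 11.22 to 11.29, Hdac8 read 6.68 against 7.25 to 7.35 and Kdm1b read 9.72 against 10.07 to 10.09.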

How the results depend on the processing

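Pvt1 kept its fall in every alternative that gave it a value (it has none in the authors' table) except the t-test with unequal variance and Bonferroni adjustment, where the difference of -2.86 had an adjusted p of 1. The count of falls among member genes, 10 in the report, was 9 after a shift to the 75th percentile, 11 with cyclic loess, 9 with the authors' values and 8 without the mask, whereas the count of rises, 4 in the report, was 19, 12, 11 and 9, while of all probes 24.7%, 18.9%, 9.86% and 8.82% rose, against 4.79%. Over all probes the share of falls among the calls was 38.2%, 49.3%, 49.7% and 49.0% in these, against 79.3%. Of all probes 15.2%, 18.4%, 9.75% and 8.46% fell, against 18.4%. The slide row as a block gave 5 falls and 0 rises, where 8.98% of all probes fell and 1.86% rose. A t-test with unequal variance, named in the legend to the study's plot of these arrays, gave 7 falls and 0 rises after Benjamini-Hochberg adjustment. Of all probes 9.96% fell and 1.98% rose by that test. After Bonferroni adjustment there were 0 of either (3 and 3 over all probes). The methods name Bonferroni, with permutation p-values, for a comparison of fibers and not for these arrays. The mean of all tested probes gave 15 falls and 2 rises, where 14.3% of all genes fell and 4.25% rose. Leaving out 1 array gave between 6 and 12 falls and between 0 and 7 rises. The shares over all probes then ran from 10.4% to 19.9% lower and from 2.35% to 12% higher. Without silenced replicate 4 falls were 59.7% of all calls.

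With the replicate number as a block there were 6 falls and 4 rises, where 13.9% of all probes fell and 3.57% rose. Kat6a, Kdm2a, Kmt2b, Sirt6 and Hdac6 lost their calls, and Sirt5 was called higher. Same-numbered arrays deviated together with correlations of -0.0434, 0.189, 0.221 and 0.0566, and 4 of 8 arrays matched their own number best, so the numbers were not taken to pair the samples.

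Over the named genes and probes, 487 alternative values stayed on their side of the threshold, 100 lost the call, 12 gained one and 0 calls changed sign. Crebbp, Kdm6b, Kdm8 and Kmt2a lost theirs only under Bonferroni, whereas Kdm5d lost it in 12 of 22 alternatives, Kdm2a in 11 and Hdac6, Sirt3 and Suv420h2 in 10 each. Suv420h2 was at 0.08 by the mean of its probes. The causes were not tested. Dim probes such as those of Kdm6a, Kdm5d and Suv420h1 are limited by their signal over background.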
